A study of Mus musculus with 3 samples.

Results

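The kelch adaptors and cullin ligase scaffolds are the genes of the cullin-RING ubiquitin ligases that carry a kelch adaptor or a cullin in their name, with their common parts. They were taken by symbol, as all protein-coding genes named Klhl, Kbtbd or Cul with a number, plus Keap1, Rbx1, Rnf7, Nedd8, Cand1 and Cand2. This gave 59 genes of the 55487 in the table, made up of 36 Klhl genes, 9 Kbtbd genes, 8 cullins and the 6 genes named singly. Expression was measured by RNA sequencing after ribosomal RNA removal in 3 libraries labelled as replicates of mpkDCT4a, an immortalised epithelial line from the mouse distal convoluted tubule. All 3 were wild-type cells in 1 group, kept at 37 °C in medium with 2% serum, insulin at 5 µg/ml, epidermal growth factor at 10 ng/ml, transferrin, selenate, glucose and the hormones dexamethasone (50 nM) and triiodothyronine (1 nM), so there were no conditions to compare. Whether they were cultured apart is not on the labels, and every p-value therefore speaks of the spread among these libraries alone, possibly a technical one.

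In a cullin-RING ligase the cullin is a scaffold between a RING protein, Rbx1 or Rnf7, which receives the ubiquitin-charged enzyme, and an adaptor that picks the substrate. Attachment of the ubiquitin-like protein Nedd8 switches the cullin on, and Cand1 exchanges the adaptors. Cul3 uses adaptors with a BTB domain, many of them with kelch repeats that grip the substrate. In the distal convoluted tubule the pair of Klhl3 and Cul3 marks WNK kinases for degradation, and human mutations of either gene cause hypertension with high potassium. Keap1 uses Cul3 to keep the antioxidant factor NRF2 low.

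The libraries held 436983, 482418 and 443192 counts, of which the members took 0.306%, 0.325% and 0.320%. Detection and level thresholds are in CPM (counts scaled to a common library size), and levels of different genes are compared in TPM, which also divides by the length of all exons of the gene. Detection means an average of at least 1 CPM, which takes 2 counts over the 3 libraries. With 0 counts in all 3 a level of up to 2.20 CPM (3 counts) remains possible. Values with ± are mean and SD over n = 3 libraries. The intervals and the limit of 2.20 CPM reflect counting error and nothing else. Limits on a ratio set the gene with 0 counts at 3 counts, also with a replicate left out. They take the count of the other gene as observed, without its counting error. The label of the line was checked against markers of its segment. Of 12 markers of the distal convoluted tubule 5 were detected, beside 50.6% of protein-coding genes, and 2 reached 10 CPM, beside 40.8%. The defining sodium chloride cotransporter gene Slc12a3 and Pvalb had 0 counts, as had the member Klhl3, which is among the 12. Of the markers of other nephron segments, 0 of 6 for principal cells, 0 of 5 for intercalated cells and 1 of 5 for proximal tubule (Lrp2) were detected. Lrp2 stood at 47.3 ± 3.70 TPM, in mean above the highest of the 12, Wnk4, at 40.0 ± 9.56 TPM.

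Most of the ligase genes were expressed, and the adaptors spread from high levels to no count. In TPM the scaffolds but Cul9 and the common parts but Cand2 lay above the median of detected protein-coding genes. In CPM Rnf7 (21.5 CPM) and Cand2 (36.4 CPM) lay below that median (39.6 CPM). Of the 59 genes 42 were detected (71.2%), against 50.6% of 21974 protein-coding genes. 35 reached 10 CPM (59.3%, against 40.8%) and 9 reached 100 CPM (15.3%, against 12.2%). 38 had a count in every library (64.4%, against 46.6%), and 15 had none in any (25.4%, against 46%). The median over all members was 18.4 ± 1.10 CPM or, per length, 12 ± 1.14 TPM, beside 1.51 ± 0.0642 TPM over all protein-coding genes. Over detected genes alone the order was the other way, with 25.05 ± 1.90 TPM for the members and 31.4 ± 0.346 TPM for protein-coding genes (SD of the medians within the single libraries). Apart from Cul9, which had 1 count, every cullin and common part had counts in every library, beside 46.6% of protein-coding genes. Below 1 CPM lay 16 of 46 kelch adaptors, beside a larger share of protein-coding genes (10852 of 21974).

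**Figure D1:**
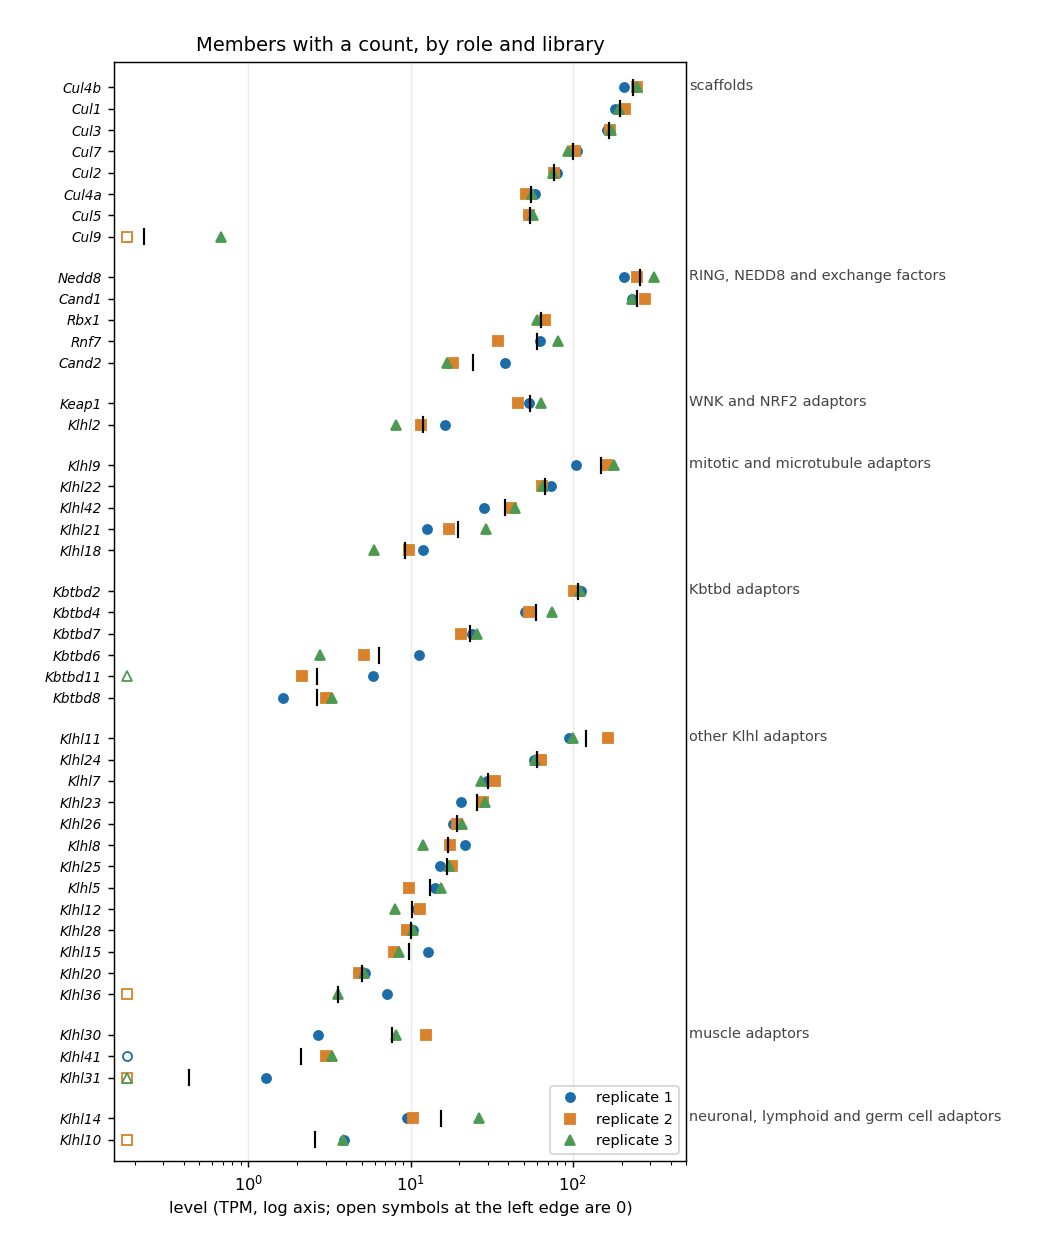
Level in TPM (log axis) of the 44 members with at least 1 count in all, grouped by role. Coloured symbols are the 3 libraries, black ticks the mean, and open symbols at the left edge stand for 0. Cullins other than Cul9 sit between 54.6 and 234 TPM with libraries close together, while the adaptors span from under 1 to 148 TPM.

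No member passed a test of variation between the replicates beyond counting error. Members of few counts, such as Klhl36 (2, 0 and 1 counts), could hardly have passed it at this depth. When the 3 counts of every gene were set against library size by chi-square, with Benjamini-Hochberg adjustment over all 12473 detected genes, 0 of the 42 detected members passed an adjusted threshold of 0.05, and 5 of the 12473 genes did (0.0401%). At an unadjusted p under 0.05 there were 4 members (9.52%), against 4.89% of all genes tested. They were Klhl9 (52, 88 and 90 counts), Cand2 (25, 13 and 11 counts), Klhl11 (27, 51 and 29 counts) and Klhl14 (5, 6 and 14 counts). The exact multinomial test gave unadjusted p = 0.00693 for Klhl9, 0.0218 for Cand2, 0.0365 for Klhl11 and 0.0651 for Klhl14, and also 0.0451 for Kbtbd11. With it 621 of the 12473 genes had an unadjusted p under 0.05 (4.98%), and 0 members passed after adjustment, the smallest adjusted p of a member being 0.860 (Klhl9).

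Among the scaffolds, Cul4b, Cul1 and Cul3 led. Cul4b, which binds substrates through Ddb1, had 96, 125 and 115 counts in replicates 1, 2 and 3, or 234 ± 23.1 TPM (GRCm38 chromosome X, 38533274 to 38576196, minus strand). Cul1, the scaffold of the ligases that use Skp1 and F-box proteins, had 88, 110 and 94 counts, or 195 ± 13.5 TPM (chromosome 6, 47453398 to 47526139, plus strand). Cul3 had 94, 107 and 101 counts, or 167.5 ± 5.61 TPM (chromosome 1, 80264923 to 80340480, minus strand). The ranges over libraries overlapped for Cul4b and Cul1 but not for Cul1 and Cul3.

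The other cullins were lower when scaled by all exons, in an order that depends on the length used. Cul7, a scaffold whose human gene is mutated in a growth disorder, had 94, 99 and 83 counts, or 101 ± 6.69 TPM. Cul2, the scaffold of the von Hippel-Lindau ligase, had 40, 42 and 38 counts, or 76.9 ± 2.23 TPM. Cul4a and Cul5, the scaffold that uses SOCS-box adaptors, had overlapping ranges at 55.4 ± 3.63 TPM (45, 43 and 43 counts) and 54.6 ± 2.09 TPM (52, 57 and 56 counts). Cul9, a relative of Cul7 that binds p53 in the cytoplasm, had 1 count, in replicate 3.

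As shares of the summed cullin TPM, Cul4b took 26.4% ± 1.73, Cul1 22.0% ± 0.828 and Cul3 18.9% ± 0.375, and Cul4a and Cul4b together took 32.7% ± 1.25. The order within the leading 3 depended on the length used. With the longest coding sequence it was Cul3 (21.8%), Cul1 (20.8%) and Cul4b (19.1%), and with the mean transcript length Cul1 (33.5%), Cul3 (19.8%) and Cul4b (17.3%). Among the others the order turned too. With the longest coding sequence it was Cul5 (10.7%), Cul4a (9.60%), Cul7 (9.06%) and Cul2 (8.93%), and with the mean transcript length Cul4a (9.26%), Cul7 (8.39%), Cul2 (6.40%) and Cul5 (5.38%). The same 3 genes led under each of the 4 length settings tried, no division by length among them.

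**Figure D2:**
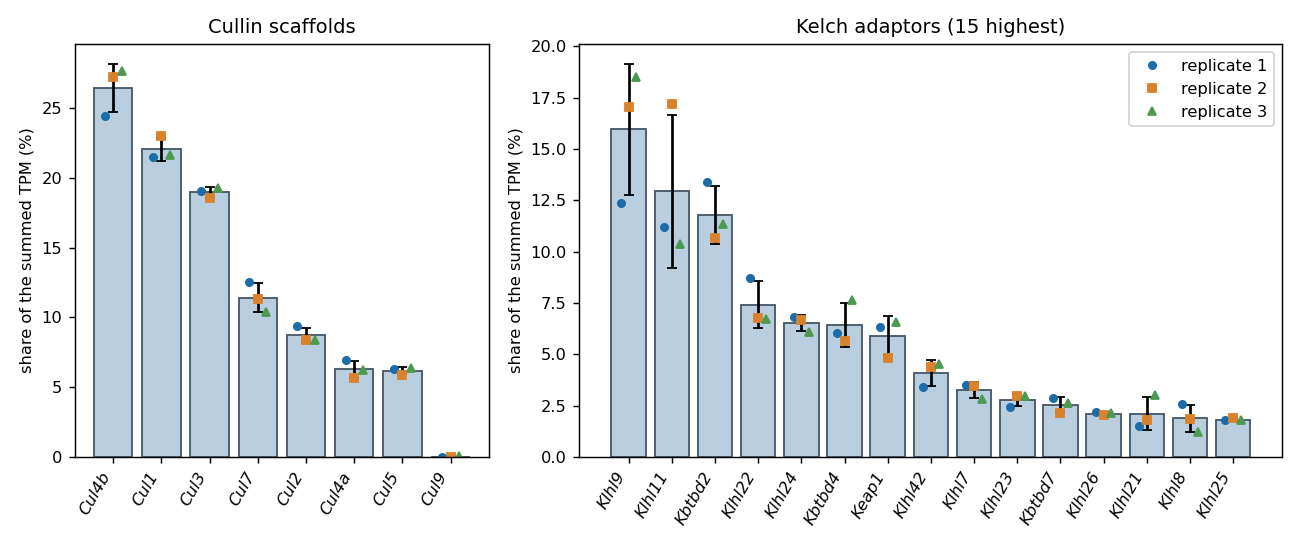
Share (%) of each cullin in the summed TPM of the 8 cullins (left) and of the 15 highest kelch adaptors in that of all 46 adaptors (right). Bars are means, error bars the SD, and symbols the 3 libraries. Cul4b, Cul1 and Cul3 each take over 18% of the cullin sum, and none of the 46 adaptors averages above Klhl9 at 16.0%.

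The 5 common parts were all detected, beside 50.6% of protein-coding genes, and of the exchange factors Cand1 stood far above Cand2. Nedd8, the modifier that activates cullins, had 31, 41 and 48 counts, or 257 ± 55.9 TPM (chromosome 14, 55662263 to 55672124, minus strand). Cand1 had 231, 303 and 232 counts, or 247 ± 27.3 TPM (chromosome 10, 119199255 to 119240055, minus strand), and its range overlapped that of Nedd8. Cand2, its paralog known from muscle, stood at 24.4 ± 12 TPM with 25, 13 and 11 counts, replicate 1 being the high one. Of the exon bases of Cand2, 1.0% overlap Rpl32 (589 counts) on the other strand, and whether the counting used strand is not stated. Cand1 had 10.2 times the counts of Cand2 per exon length (95% counting interval 7.67 to 14), or 20.0 times with the mean transcript length.

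The RING proteins were close in level when scaled by all exons. Rbx1, which serves most cullins, had 35, 40 and 33 counts, or 64.0 ± 3.59 TPM, and Rnf7, the partner of Cul5, had 10, 6 and 13 counts, or 59.7 ± 23.5 TPM. Their ratio of 1.09 had an interval of 0.716 to 1.7 that includes 1, and it changed direction between libraries. It depends on the length used: Rbx1 has 4.55 kb of exon sequence in all but a coding sequence of 324 bases. With the longest coding sequence the ratio was 3.90 and with the mean transcript length 3.04. Of the 50-base stretches of Rnf7, 27.4% occur in transcripts of other genes, so its count is uncertain. Nedd8 had 4.01 times the counts of Rbx1 per exon length (3.07 to 5.25), and 1.48 times with the longest coding sequence. 14.6% of the exon bases of Nedd8 overlap Gmpr2 (57 counts) on the other strand, and whether the counting used strand is not stated.

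Of the adaptors of the WNK and NRF2 ligases, Keap1 and Klhl2 were expressed and Klhl3 was not detected. Keap1 had 30, 28 and 36 counts, or 54.4 ± 9.03 TPM (chromosome 9, 21229730 to 21239361, minus strand), and its substrate gene Nfe2l2, which encodes NRF2, stood at 98.7 ± 18 TPM. Klhl2, the close paralog of Klhl3, had 18, 14 and 9 counts, or 12 ± 4.11 TPM (chromosome 8, 64739675 to 64850017, minus strand). Klhl3 had 0 counts in every library (chromosome 13, 58000228 to 58113592, minus strand). Klhl2 was thus at least 10.8-fold higher than Klhl3 per exon length, taking 3 counts over all libraries for Klhl3. That limit was 6.07-fold without replicate 1 and 7.13-fold without replicate 2, and 22.9-fold with the mean transcript length. Keap1 had 4.52 times the counts of Klhl2 per exon length (3.10 to 6.69), or 2.22 times with the longest coding sequence. Of the WNK kinases, the substrates of these ligases, Wnk1 stood at 125 ± 6.38 TPM and Wnk4 at 40.0 ± 9.56 TPM, whereas Wnk3 had 1 count and Wnk2 0.

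The windows around the annotated starts of Klhl2 and Klhl3 are printed to show how this expressed gene and its undetected paralog differ there. Those of Cul7 and Klhl29 are printed because their CpG counts go the other way. Each runs 5′ to 3′ along the gene's strand from 250 bases before the start to 50 after it (RefSeq, GRCm38.p6), and capitals mark CpG dinucleotides.
Klhl2 (chr8:64849875-64850174, minus strand): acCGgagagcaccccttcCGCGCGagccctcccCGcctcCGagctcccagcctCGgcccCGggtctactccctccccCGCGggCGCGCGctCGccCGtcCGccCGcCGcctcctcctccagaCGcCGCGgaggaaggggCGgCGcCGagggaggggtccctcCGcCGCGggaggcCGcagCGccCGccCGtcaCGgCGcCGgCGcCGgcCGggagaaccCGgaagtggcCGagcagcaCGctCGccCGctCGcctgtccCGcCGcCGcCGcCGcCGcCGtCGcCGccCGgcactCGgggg
Klhl3 (chr13:58113598-58113897, minus strand): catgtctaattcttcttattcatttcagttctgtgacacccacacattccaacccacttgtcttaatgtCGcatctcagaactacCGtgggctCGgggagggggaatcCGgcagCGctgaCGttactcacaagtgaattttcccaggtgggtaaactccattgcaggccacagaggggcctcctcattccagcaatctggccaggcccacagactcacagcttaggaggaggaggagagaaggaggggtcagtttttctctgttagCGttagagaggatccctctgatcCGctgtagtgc
Cul7 (chr17:46650088-46650387, plus strand): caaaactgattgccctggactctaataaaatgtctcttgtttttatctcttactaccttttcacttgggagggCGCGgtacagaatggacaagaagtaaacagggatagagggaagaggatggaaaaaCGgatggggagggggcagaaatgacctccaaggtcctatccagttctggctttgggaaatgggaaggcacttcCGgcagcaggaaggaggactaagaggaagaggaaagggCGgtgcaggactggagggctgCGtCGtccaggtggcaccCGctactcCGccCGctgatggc
Klhl29 (chr12:5375633-5375932, minus strand): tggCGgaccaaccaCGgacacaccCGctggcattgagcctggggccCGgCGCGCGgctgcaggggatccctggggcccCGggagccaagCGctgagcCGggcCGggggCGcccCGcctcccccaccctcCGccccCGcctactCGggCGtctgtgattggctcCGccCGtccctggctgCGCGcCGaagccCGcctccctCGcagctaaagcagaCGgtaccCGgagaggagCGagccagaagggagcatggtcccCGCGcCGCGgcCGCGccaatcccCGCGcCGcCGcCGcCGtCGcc

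Klhl2 held 54 CpG in its 300 bases, the most of the 49 members with such a window, and Klhl3 held 8. Cul7, expressed in all libraries, held 10, and Klhl29, a kelch gene with 0 counts, held 40. The RefSeq start of Klhl3 lies just upstream of the first exon that GENCODE annotates.

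Of the 59 members 49 matched an entry of the RefSeq promoter table by symbol, and Kbtbd6, Kbtbd11, Klhl8, Klhl14, Klhl24, Klhl30, Klhl38, Klhl42, Cand2 and Cul2 did not. CpG counts were higher for detected genes, a split made with the values in view. The median was 23.0 CpG for 33 detected members and 8 CpG for 16 below 1 CPM, averaging over the starts of a gene. All protein-coding genes with an entry showed medians of 21.5 and 4.00 CpG in the same split (8822 and 7691 genes). At least 15 CpG were held by 28 of the 33 detected members (84.8%, against 75.7% of detected protein-coding genes) and by 5 of the 16 others (31.2%, against 18.6%). These 5 were Cul9, Kbtbd3, Kbtbd12, Klhl29 and Klhl32, and the detected members with fewer than 15 were Cul4b, Cul7, Keap1, Klhl10 and Klhl41. Motif matches on either strand were near the share of all promoters. The antioxidant response element core TGACNNNGC occurred in 9 of 63 member windows (14.3%, against 12.4% of all 32851), the TATA box TATAAA in 7 (11.1%, against 13.6%) and the E-box CACGTG in 6 (9.52%, against 7.15%). The window of Keap1 held none of the 3 motifs.

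**Figure D3:**
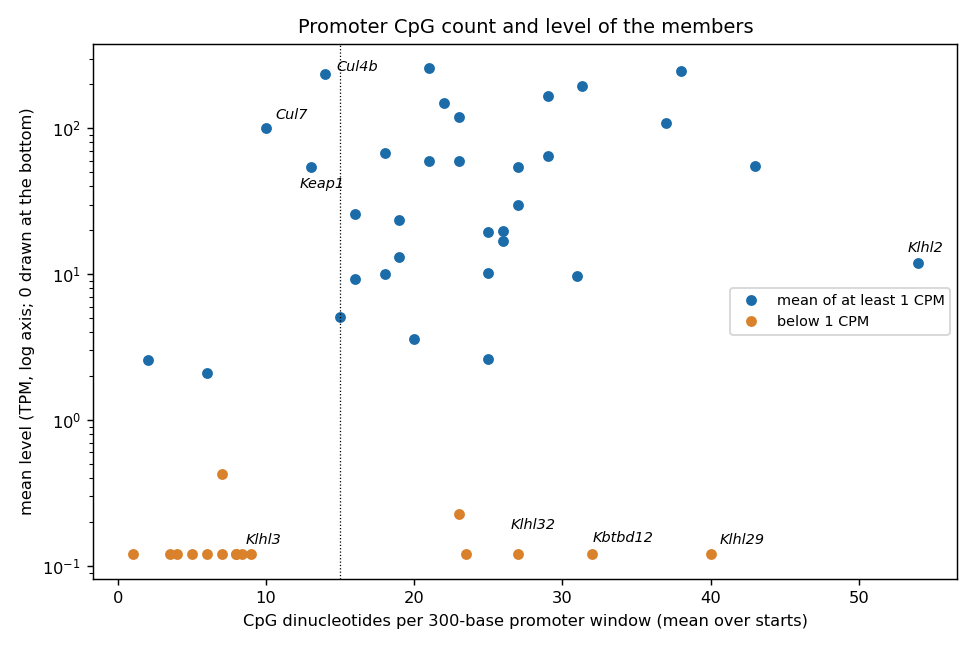
CpG count per 300-base promoter window (mean over a gene's starts) against mean level in TPM (log axis) for 49 members. Blue points are members of at least 1 CPM, orange points those below, with 0 drawn at the bottom edge and a dotted line at 15 CpG. Most orange points lie left of the line, and Klhl29, Kbtbd12 and Klhl32 are among the exceptions on the right.

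Kelch adaptors that act in cell division held some of the highest levels. In human cells Klhl9, Klhl13 and Klhl21 direct Cul3 to Aurora B, Klhl22 to Plk1 and Klhl18 to Aurora A, and Klhl42 targets the microtubule-severing enzyme katanin. Klhl9 had the highest mean of the adaptors of the rule at 148.5 ± 39.3 TPM (chromosome 4, 88718292 to 88722465, minus strand), with replicate 1 below the others. Its range overlapped that of Klhl11, and it led in replicate 3 alone, behind Kbtbd2 in replicate 1 and Klhl11 in replicate 2. Klhl22 had 46, 44 and 41 counts, or 67.7 ± 5.01 TPM, and Klhl42 had 22, 35 and 34 counts, or 38.0 ± 8.29 TPM. Klhl21 had 6, 9 and 14 counts, or 19.7 ± 8.56 TPM, and Klhl18 had 10, 9 and 5 counts, or 9.23 ± 3.04 TPM. Klhl13, on the X chromosome (23219271 to 23365082, minus strand), had 0 counts in every library.

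Klhl9 was therefore at least 78.1-fold higher than Klhl13 per exon length, taking 3 counts for Klhl13 and the counts of Klhl9 as observed. The limit was 48.2-fold without replicate 2 and 47.6-fold without replicate 3, with the 3 counts kept while those of Klhl9 fall. Klhl9 is a gene of 1 exon, and 15.8% of it overlaps the gene Gm26566 on the other strand, which had 0 counts. Klhl21 had 0.291 times the counts of Klhl22 per exon length (0.187 to 0.437), and 0.0648 times with the mean transcript length, the mean annotated transcript of Klhl22 (1167 bases) being shorter than its longest coding sequence (1902 bases). The substrate genes of these adaptors had counts as well, with Plk1 at 171 ± 26.1 TPM, Aurka at 134.5 ± 15.3 TPM, Katna1 at 117 ± 13.1 TPM and Aurkb at 89.6 ± 11.4 TPM.

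The remaining Klhl genes, those placed in no other group by role, were mostly detected. Their median was 10.2 ± 1.65 TPM (SD of the medians within the single libraries). Of 17 such genes 13 were detected, beside 50.6% of protein-coding genes, and 12 reached 10 CPM, beside 40.8%. Klhl11, known as an autoantigen, reached 120 ± 38.3 TPM, with replicate 2 above the others. Klhl24, which in human skin controls the turnover of keratin 14, had 70, 84 and 72 counts, or 59.9 ± 3.06 TPM. The other adaptors were lower.

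Klhl7, mutated in human retinal degeneration, had 14, 17 and 13 counts (29.9 ± 2.85 TPM). Klhl23 had 12, 18 and 17 counts (25.7 ± 4.63 TPM). Klhl26 had 7, 8 and 8 counts (19.5 ± 1.27 TPM). The ranges of Klhl7 and Klhl23 overlapped over the libraries, as did those of Klhl26 and Klhl8, the next gene. Klhl8 had 9, 8 and 5 counts (17.0 ± 4.85 TPM). Klhl25, an adaptor for ATP-citrate lyase, had 7, 9 and 8 counts (16.8 ± 1.43 TPM). Klhl5 had 12, 9 and 13 counts (13.1 ± 2.93 TPM). Klhl12, which ubiquitinates the coat protein Sec31 for the export of collagen, had 15, 17 and 11 counts (10.2 ± 1.86 TPM). Its substrate gene Sec31a stood at 159 ± 13.6 TPM.

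Klhl28 had 9 counts in each library (10.1 ± 0.476 TPM). Klhl15, which acts on a regulatory subunit of phosphatase 2A, had 15, 10 and 10 counts (9.77 ± 2.72 TPM). Klhl20, an adaptor of the autophagy kinase Ulk1, had 8 counts in each library (5.06 ± 0.239 TPM). The equal counts of Klhl20 and Klhl28 put their SD below what counting error alone would give on average. Klhl12 had 2.02 times the counts of Klhl20 per exon length (1.2 to 3.48). Klhl36 had 2, 0 and 1 counts, and Klhl29, Klhl32, Klhl34 and Klhl35 had none.

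Among the Kbtbd genes, Kbtbd2 had the highest mean TPM, followed by Kbtbd4, whose count is uncertain. Kbtbd2, which in mice limits the p85 subunit of PI3 kinase and so keeps cells responsive to insulin, had 55, 54 and 54 counts, or 108 ± 5.81 TPM (chromosome 6, 56777524 to 56797813, minus strand), and its substrate gene Pik3r1 stood at 20.6 ± 3.15 TPM. Kbtbd8, a factor of neural crest specification, had 1, 2 and 2 counts, and Kbtbd2 had 40.7 times its counts per exon length (17.1 to 127). Kbtbd4, mutated in human medulloblastoma, had 19, 22 and 28 counts (59.5 ± 12.8 TPM), but 55.6% of its exon bases overlap Ndufs3 (63 counts) or Ptpmt1 (69 counts) on the other strand, so its count is uncertain. Kbtbd7 had 13, 12 and 14 counts (23.4 ± 2.75 TPM) and its partner Kbtbd6 4, 2 and 1 (6.38 ± 4.35 TPM). Kbtbd6 had 0.272 times the counts of Kbtbd7 per exon length (0.103 to 0.616), and 0.175 times without replicate 1. Of their 50-base stretches 24.7% (Kbtbd6) and 16.2% (Kbtbd7) occur in the other gene, so both are uncertain. Kbtbd11 had 5, 2 and 0 counts and Kbtbd3 had none.

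Adaptors known from muscle had 0 counts in 5 of 8 cases, beside 46% of protein-coding genes. Those known from nerve, lymphocytes and testis had 0 counts in 3 of 5, not far from that share. Of 8 muscle adaptors 2 were detected, beside 50.6% of protein-coding genes, and 0 reached 10 CPM, beside 40.8%. Klhl30 had 1, 5 and 3 counts and Klhl41 had 0, 1 and 1, while Klhl31 had 1 count in all. Klhl33, Klhl38, Klhl40, Kbtbd12 and Kbtbd13 had none, among them Klhl40 and Kbtbd13, which are mutated with Klhl41 in human nemaline myopathy. With Klhl40 at 0 and Klhl41 at 2 counts no ratio of the pair could be given. Skeletal muscle markers were near 0 too, with 0 of 8 detected and 1 count in all (Ttn).

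Of the 5 adaptors of neurons, lymphocytes and germ cells 2 were detected, beside 50.6% of protein-coding genes. Klhl14 was the highest of the 5, with 25 counts. Klhl14 (chromosome 18, 21550377 to 21654718, minus strand) was at 15.4 ± 9.47 TPM, with replicate 3 holding 14 of the 25 counts. The gene that overlaps it on the other strand, 4930426D05Rik, had 1 count. Klhl10, needed in mouse sperm cells, had 1, 0 and 1 counts. Klhl1, known from the cerebellum, Klhl4 and Klhl6, which acts in B cells, had none. Of the markers of those cells, 0 of 4 for lymphocytes and 0 of 4 for germ cells were detected, and of 5 for neurons Tubb3 was (6, 4 and 9 counts).

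Taken as a pool, the kelch adaptors of the rule summed to more TPM than Cul3, and a few genes made up most of the pool. This sets 46 genes against a single gene, on RNA alone, and does not show which protein is in excess. Kelch genes with other symbols, such as Ivns1abp at 163 TPM, are left out of the pool. The summed TPM of the 46 adaptors was 921 ± 69.1 TPM, or 5.49 ± 0.240 times that of Cul3 (5.22, 5.64 and 5.62 in the 3 libraries). The 3 highest adaptors, Klhl9, Klhl11 and Kbtbd2, held 40.7% ± 3.99 of the pool, the 5 highest 54.7% ± 3.23 and the 10 highest 77.2% ± 2.73. Klhl2 and Keap1 fell on either side of the middle of the detected adaptors. The ratio to Cul3 was 4.83 with the mean transcript length and 6.84 with the longest coding sequence.

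Pairs of paralogs or partners were compared within each library, where the library scaling cancels. Of 15 pairs 14 could be compared. The direction was shared by all 3 libraries for 13 of them. For these 13 the two-sided exact sign-flip permutation test over the libraries gave p = 0.25, the smallest value that 3 libraries allow, and 0.269 after Benjamini-Hochberg adjustment over the 14 pairs. No pair can therefore pass a threshold of 0.05 over libraries. The counting intervals left out 1 for 10 of the 12 pairs with counts in both genes, and the exceptions were Cul1 with Cul3 and Rbx1 with Rnf7. Cul4a had 0.236 times the counts of Cul4b per exon length (0.191 to 0.289), or 0.533 times with the mean transcript length. Cul2 had 1.41 times the counts of Cul5 per exon length (1.10 to 1.79), but 0.835 times with the longest coding sequence, so their order depends on the length used. Cul1 had 1.17 times the counts of Cul3 (0.990 to 1.37).

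**Figure D4:**
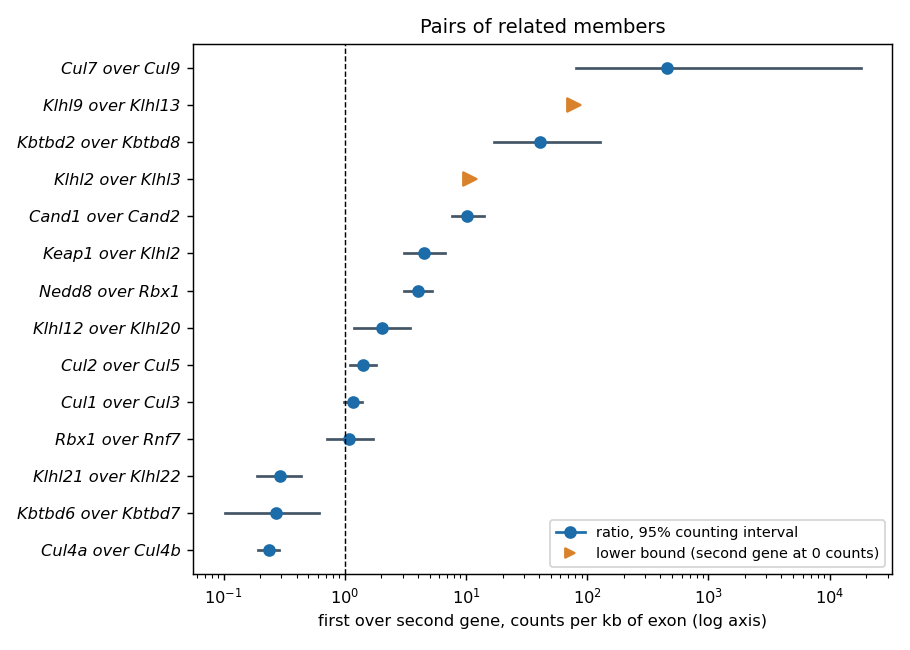
Ratio of counts per kb of exon (log axis) for 14 pairs of members, summed over the 3 libraries. Circles with lines are ratios with 95% counting intervals, triangles lower bounds where the second gene had 0 counts, and the dashed line marks 1. Cul7 over Cul9 is the highest at 454 and Cul4a over Cul4b the lowest at 0.236.

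Pairs of members in the same stretch of the genome are given as a description, with no comparison to pairs elsewhere. 5 pairs lie within 200 kb of each other, and this grouping was made with the values in view. Klhl11 and Klhl10 lie 5.59 kb apart on opposite strands of chromosome 11, and Klhl11 had 107 counts against 2, a ratio of 48.3 per exon length (13.1 to 404). Cul7 and Cul9 lie 104 kb apart on chromosome 17 (46650337 to 46664364, plus strand, and 46500572 to 46546388, minus strand), with 276 counts against 1, a ratio of 454 with a wide interval of 80.9 to 18010. The ratio was 299.6 without replicate 1 and 291 without replicate 2. Without replicate 3, which holds the only count of Cul9, Cul7 was at least 106-fold higher.

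The remaining pairs were further apart in the genome or closer in level. Klhl24 (226 counts) and Klhl6 (0 counts) lie 114.5 kb apart on chromosome 16, and Klhl24 was at least 19.3-fold higher. Klhl23 (47 counts) lies 138 kb from Klhl41 (2 counts) on chromosome 2, a ratio of 12.1 (3.16 to 103). Kbtbd7 and Kbtbd6, both genes of 1 exon on the plus strand of chromosome 14, lie 20.8 kb apart and had a ratio of 3.67 (1.62 to 9.73), the smallest of the 5 and uncertain for their shared sequence. Of the 5 members on the X chromosome 2 were detected, beside 50.6% of all protein-coding genes. These were Cul4b and Klhl15, whereas Klhl4, Klhl13 and Klhl34 had no count.

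**Figure D5:**
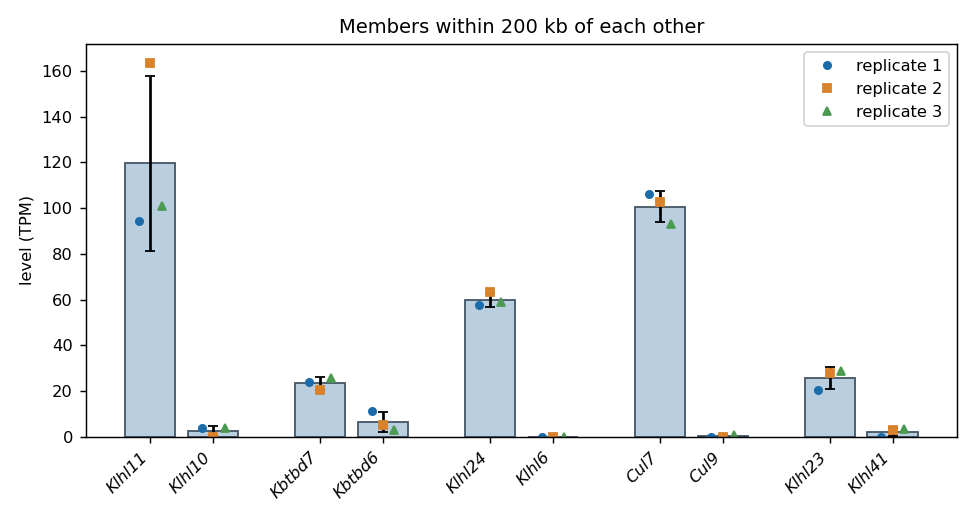
Level in TPM of the 5 pairs of members within 200 kb of each other, the higher member of each pair on the left. Bars are means, error bars the SD and symbols the 3 libraries. In 4 of the 5 pairs the lower member stays under 3 TPM on average, and Kbtbd6 is at 6.38 TPM.

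The listed genes that attach and remove Nedd8 all had a mean of at least 1 CPM, as had 50.6% of protein-coding genes. All 11 genes of Nedd8 conjugation and removal were detected, with a median of 26.3 ± 2.65 TPM, led by the conjugating enzyme Ube2m at 201 ± 32.2 TPM, Nub1, which lowers Nedd8 levels, at 147 ± 7.62 TPM and Dcun1d5, a Nedd8 ligase factor, at 70.5 ± 7.20 TPM. All 10 genes of the COP9 signalosome, the complex that takes Nedd8 off cullins, were detected, with a median of 94.7 ± 4.80 TPM. Cops6 was highest at 266 ± 16.0 TPM, followed by Cops2 at 233 ± 20.4 TPM and Cops3 at 159 ± 6.88 TPM. For comparison the median over the 8 cullins was 88.8 ± 4.38 TPM, that over all protein-coding genes 1.51 ± 0.0642 TPM and that over the detected ones 31.4 ± 0.346 TPM. The Nedd8 list lay below the last of these and the COP9 list above it.

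Short lists of well-known adaptors, which do not cover their families, were read for the other cullins and for Cul3 adaptors without kelch repeats, again beside 50.6% of protein-coding genes detected. All 10 listed adaptors of Cul1 had a mean above 1 CPM, led by Skp1a (483.5 ± 25.2 TPM), Fbxw11 (153 ± 11.1 TPM) and Fbxo11 (121 ± 32.8 TPM). All 11 of Cul2 and Cul5 did, led by Elob (353 ± 18.1 TPM), Fem1b (149 ± 14.4 TPM) and Klhdc3 (113 ± 25.4 TPM). All 13 of Cul4 did, led by Ddb1, which links Cul4 to its receptors, at 927 ± 12.9 TPM, then Dcaf7 (188 ± 6.10 TPM) and Dcaf1 (66.2 ± 4.62 TPM). Ddb1 was thus above every member of the cullin and kelch set in TPM.

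All 18 listed BTB adaptors of Cul3 without kelch repeats were detected, led by Tnfaip1 (284 ± 27.6 TPM), Kctd10 (192 ± 10.7 TPM) and Rhobtb3 (162 ± 11.1 TPM), with Spop at 113 ± 14.3 TPM. The mean of Tnfaip1 was above that of every kelch adaptor. None of the genes in these lists passed the chi-square test between replicates.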

How the data were processed

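Total RNA of the 3 mpkDCT4a samples was depleted of ribosomal RNA and made into libraries from 500 ng of total RNA with fragments near 300 bp, per the labels' protocols. The deposited values are whole-number counts per Ensembl gene, not normalised, and were aligned to mm10 with tools that include STAR and HTSeq, per the submitters' processing notes. For versions, strand setting and annotation release nothing is stated there. Each column carries its replicate number in its name.

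Names, positions and lengths came from GENCODE M21 (GRCm38), which matched 55227 of 55487 genes. The 260 others held 0.0230% of counts. Library sizes were scaled with TMM factors from edgeR 4.0.16 (factors 0.992, 1.00 and 1.01; R 4.3.3). TPM used the union of a gene's exons. Other steps ran in Python 3.11.15 (scipy 1.17.1, numpy 2.4.6, pandas 2.3.3), with figures from matplotlib 3.10.9. The edgeR biological coefficient of variation was 0.0394 over 12473 genes, and counts of each replicate pair were further apart than counting error gives (8983 genes, chi-square p = 1.36e-08, 8.62e-16 and 0.000713), so none was taken for a copy.

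The chi-square test was used because 1 group gives no contrast for a count model. It was also run on simulated counts, the result of which is not given here. Pair ratios have exact binomial intervals, and sign-flip tests used log2 ratios of counts + 0.5. Opposite-strand overlap and the share of 50-base stretches found in other genes' transcripts were counted for each member. Promoter sequences are from RefSeq. The members, lists and pairs were chosen with earlier results of these data known. By the rule for named genes every member is named, with the 3 highest genes of each other list, and Spop and the substrate genes beyond the 3 highest were named after their values were seen. Alternatives were DESeq2 1.42.0 size factors, library totals, other thresholds, filters, lengths and pseudocounts, an exact multinomial test and leaving out each replicate. One gene of the list of kelch genes with other symbols is not reported here.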

Additional observations from a re-analysis of the deposited data

How the results depend on the processing

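The count of detected members was 42 in the reported setting and within 1.5 times of it under the other scalings, thresholds of 0.5, 5 and 10 CPM, a count in every library and each left-out replicate. The median level of members was 12 TPM when divided by exon length, in place of 18.4 CPM, and 17.75 to 20.5 CPM with a replicate left out. The chi-square test called 0 members under every setting, and over all genes 1 to 3 genes with a replicate left out, in place of 5. The Cul3 share of the cullin sum was 19.8% with the mean transcript length and 21.8% with the longest coding sequence, in place of 18.9%. The adaptor sum over Cul3 was 4.83 and 6.84 with the same lengths, in place of 5.49. The ratio of Cul1 to Cul3 reversed to 0.957 with the longest coding sequence and 0.967 with no division by length, in place of 1.17, and that of Cul2 to Cul5 to 0.835 and 0.727, in place of 1.41. Rbx1 to Rnf7, at 1.09, lay between 0.863 and 1.37 with a replicate left out, and was below 1 without replicate 2. No other pair changed direction. No paired analysis was possible because there is 1 group. At this depth 1 count is worth 2.07 to 2.31 CPM, so members below 1 CPM may be expressed at low levels. Leaving out a replicate put Cul9 (without replicate 1 or 2) or Klhl31 (without replicate 2 or 3) above 1 CPM and dropped no member.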

Other observations

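Kelch genes that carry other symbols, and so fall outside the rule, were also expressed. Ivns1abp, a kelch protein that binds influenza NS1, had 117, 99 and 110 counts, or 163 ± 20.7 TPM, above Klhl9, the kelch adaptor of the rule with the highest mean, in mean TPM, with overlapping ranges over the libraries. Enc1 had 43, 54 and 48 counts (82.6 ± 5.98 TPM) and Ipp 9, 13 and 17 counts (49.6 ± 15.7 TPM). The cullin-like subunit of the anaphase-promoting complex, Anapc2, stood at 176 ± 31.4 TPM with its RING partner Anapc11 at 54.1 ± 8.79 TPM, and the cullin-associated genes Cacul1 and Glmn at 106 ± 14.7 and 27.0 ± 7.34 TPM. None of these 7 genes passed the chi-square test between replicates with Benjamini-Hochberg adjustment, in which 5 of 12473 genes passed (610 at an unadjusted p under 0.05).

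Of the 5 members whose longest coding transcript has a single exon 3 were detected, beside 50.6% of all protein-coding genes. These were Klhl9, Kbtbd7 and Kbtbd6, whereas Klhl34 and Kbtbd13 had 0 counts. The symbol Kbtbd8os, an antisense gene that the rule leaves out as not protein-coding, had 0 counts.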
